A study of Homo sapiens with 33 samples.

Results

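The genes described here are 37 human genes of amino acid supply and endoplasmic reticulum (ER) stress, chosen by name from a table of 56470 gene symbols. They comprise 7 regulators, 7 enzymes of serine, one-carbon and proline synthesis, 4 enzymes of asparagine, alanine and cysteine synthesis, 6 amino acid transporters, 4 cytosolic tRNA synthetases, 7 ER chaperones and unfolded protein response genes, and VLDLR and STC2. The choice used no cut on measured values, though earlier results of these data were known when it was made. RNA was measured in head and neck squamous cell carcinoma (HNSCC) established lines SCC1, SCC6 and SCC25, which were exposed to the anti-EGFR antibody cetuximab at 100 nM or to the vehicle PBS, with media changed daily. The 33 libraries comprise PBS days 0 to 5 in each line (18 libraries) and cetuximab days 1 to 5 (15 libraries), with 1 library per line, treatment and day. The exception is SCC6, where 2 cetuximab libraries carry the label day 2 (called 2a and 2b here) and none carries day 1.

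ATF4 is a transcription factor whose mRNA is translated preferentially when the initiation factor eIF2α is phosphorylated, as happens when amino acids run short or unfolded proteins accumulate in the ER. Its protein switches on genes for making and importing amino acids and for charging tRNAs, often through C/EBP-ATF response elements (CARE), where it binds with C/EBP partners. The ER chaperones belong to other arms of the unfolded protein response, which act through XBP1 and ATF6 on ER stress response elements (ERSE). Much of the control of ATF4 is on translation, so its mRNA level is not a reading of its protein. In bulk RNA, fewer cells carrying a transcript and less RNA per cell cannot be told apart.

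Of the 37 members, 32 matched a RefSeq promoter (GRCh38.p14, 250 bases before to 50 after a transcription start), with 50 windows between them. The CARE core TGATGNAA, on either strand, was found in 9 of those 50 windows and in 3.62% of all 35116 windows. The members holding it were AARS, ASNS, CHAC1, GARS, HERPUD1, SLC1A4, SLC1A5, SLC3A2 and SLC7A1. The ERSE, spelled as CCAAT, 9 bases and CCACG, was found in the windows of HSP90B1, HSPA5 and XBP1 and in 0.0769% of all windows. The matches below show both kinds of element, 5′ to 3′ on the strand of the gene, with the matched letters in capitals. They are descriptions of sequence only.
ASNS, chr7:97872449-97872496, minus strand, CARE at -68 to -61: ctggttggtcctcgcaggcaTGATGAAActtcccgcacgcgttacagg
SLC1A5, chr19:46784884-46784931, minus strand, CARE at -97 to -90: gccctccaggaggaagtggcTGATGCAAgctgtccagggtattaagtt
CHAC1, chr15:40953242-40953289, plus strand, CARE on the opposite strand at -209 to -202: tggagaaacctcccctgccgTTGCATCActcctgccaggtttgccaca
HERPUD1, chr16:56931946-56931993, plus strand, CARE on the opposite strand at -176 to -169: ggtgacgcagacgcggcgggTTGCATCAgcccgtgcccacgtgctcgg
HSPA5, chr9:125241371-125241429, minus strand, ERSE at -66 to -48: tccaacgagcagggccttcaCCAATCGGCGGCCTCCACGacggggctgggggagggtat
XBP1, chr22:28800583-28800641, minus strand, ERSE at -52 to -34: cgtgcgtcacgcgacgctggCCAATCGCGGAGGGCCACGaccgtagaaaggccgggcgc
HSP90B1, chr12:103930196-103930254, plus strand, ERSE at -194 to -176: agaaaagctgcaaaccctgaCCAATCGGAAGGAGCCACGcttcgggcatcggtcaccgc
HSP90B1, chr12:103930301-103930359, plus strand, ERSE on the opposite strand at -89 to -71: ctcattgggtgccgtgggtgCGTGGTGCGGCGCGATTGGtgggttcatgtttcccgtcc

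Libraries summed to between 28508758 and 80727478 estimated counts, with a median of 43002133, and levels are given as CPM, counts scaled to a common library size with TMM factors. The ERK output genes, which fall when EGFR signalling is blocked, were lower under cetuximab for 9 of 10 genes in each line, with medians of -2.30 in SCC1, -1.76 in SCC6 and -1.07 in SCC25 on the log2 scale. All libraries held squamous epithelial markers, though KRT5 and KRT14 fell as low as 1.78 and 1.87 CPM in single libraries. Summed epithelial markers ran from 2540 to 3690 CPM in SCC1 PBS and from 6870 to 10600 CPM in SCC1 cetuximab, against 2160 to 3620 and 2920 to 3810 CPM in SCC6, and 10800 to 15300 and 12700 to 14900 CPM in SCC25. The 8 markers of immune, endothelial and stromal cells summed to 3.01 to 66.5 CPM under PBS and to 9.18 to 105 CPM under cetuximab. Most of that sum was COL1A1, while PTPRC reached at most 0.301 CPM and CD3E 0.1 CPM. Their part in the results was not tested. Libraries were spread over 5 flow cells in a way that nearly followed treatment. SCC1 PBS days 0 to 4 stood apart from SCC1 PBS day 5 and all SCC1 cetuximab libraries, SCC25 cetuximab days 3 to 5 stood apart from every other SCC25 library, and SCC6 was split over 3 flow cells. Per the labels SCC6 alone was grown with added non-essential amino acids, while the study's methods describe the same medium for all 3 lines. If the labels hold, line and medium cannot be told apart.

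Each line was tested on days 1 to 5, with 5 cetuximab against 5 PBS libraries, days standing in for replicates, and a gene was called at an edgeR quasi-likelihood p below 0.05 after Benjamini-Hochberg adjustment over all genes tested. In SCC1, 36 members were tested (CBS was too low), and 7 were higher and 12 lower under cetuximab, where 22.5% and 22% of all genes tested were called higher and lower. In SCC6, 6 of 37 were higher, against backgrounds of 15.5% higher and 14.5% lower. In SCC25, 4 of 37 were lower, against backgrounds of 8.72% higher and 9.47% lower. No member was called lower in SCC6 or higher in SCC25, and in SCC1 calls went in both directions. The median log2 fold change over the members was -0.08 in SCC1, 0.26 in SCC6 and -0.17 in SCC25, while that over all genes tested was 0.02, 0.00 and 0.01. In SCC6, 34 of 37 members had a value above 0, and in SCC25, 28 had a value below 0.

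Of the members, 24 were called in at least 1 line and 5 in more than 1. SLC7A5, SLC3A2, SLC1A4 and ALDH1L2 were higher in SCC1 and SCC6, and SHMT2 was lower in SCC1 and SCC25. In these main edgeR fits no member was called in all 3 lines, and none was called higher in 1 line and lower in another. By DESeq2, HERPUD1 was called lower in SCC1 and higher in SCC6. With the trend with GC content removed, so were HERPUD1 and SLC7A1.

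**Figure D1:**
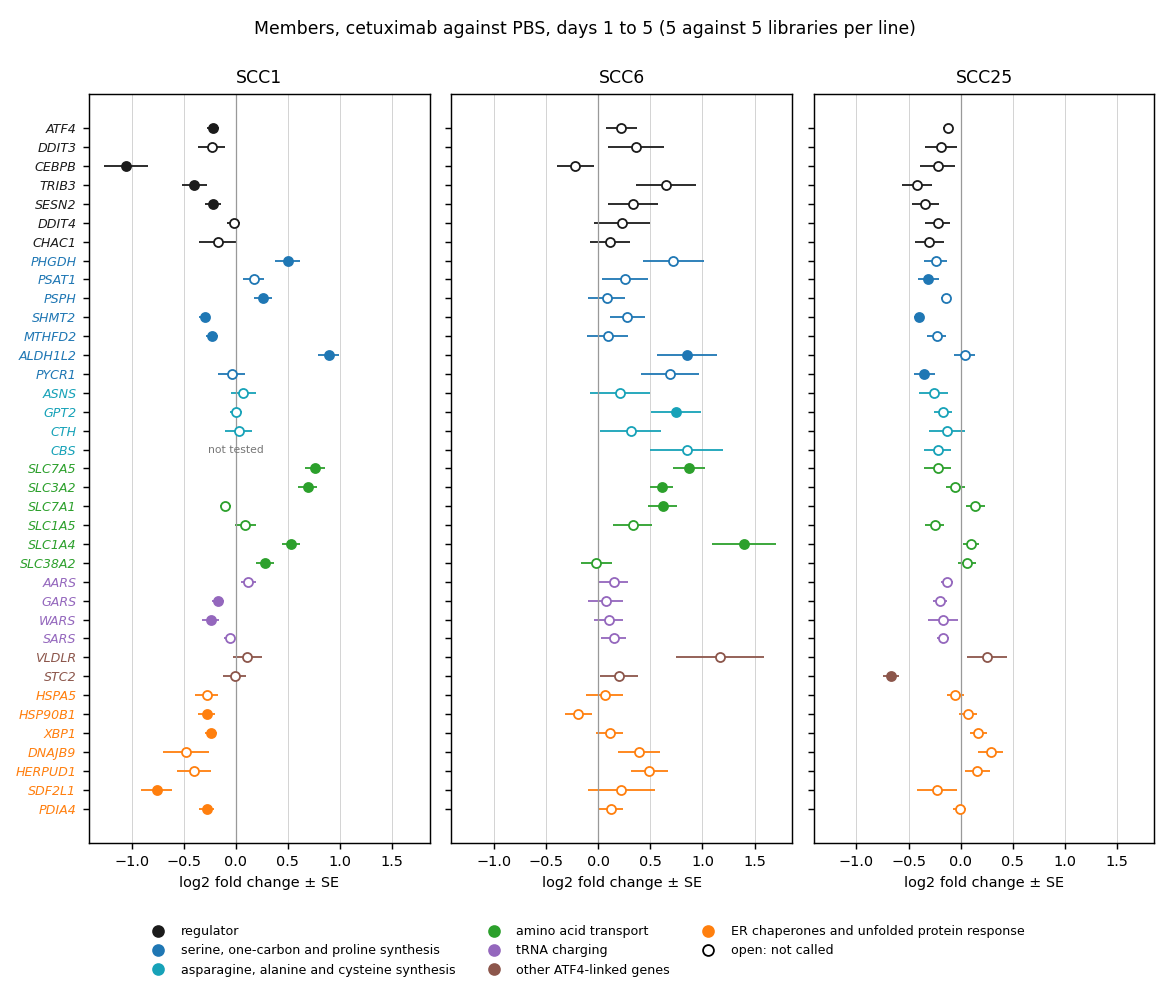
Log2 fold change of each member, cetuximab against PBS on days 1 to 5, in SCC1, SCC6 and SCC25, grouped by role, with bars of 1 standard error and called members filled. The transporters SLC7A5 (0.76 and 0.87), SLC3A2 (0.69 and 0.61) and SLC1A4 (0.53 and 1.40) lie to the right of 0 in SCC1 and SCC6, while the ER genes lie to the left of 0 in SCC1.

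Of the 6 transporters, 4 were higher in SCC1 and 4 in SCC6, with role medians of 0.41 and 0.62, and the median in SCC25 was 0.01. SLC7A5 (GRCh37 chr16:87863629-87903113, minus strand) encodes LAT1, which imports leucine and other large neutral amino acids. In SCC1, SLC7A5 stood at 2630, 1940, 1800, 1870 and 1870 CPM on PBS days 1 to 5 and at 3380, 3340, 3150, 3460 and 3730 CPM under cetuximab. Every cetuximab library lay above every PBS library, day 0 (2470 CPM) included, and the log2 fold change was 0.76 ± 0.10 (SE, edgeR adjusted p = 6.83e-05). In SCC6, SLC7A5 stood at 2430, 1580, 1680, 1660 and 1700 CPM under PBS, and at 3120, 2710, 3130, 4240 and 3530 CPM in cetuximab libraries 2a, 2b, 3, 4 and 5. Again the groups did not overlap, and the log2 fold change was 0.87 ± 0.15 (edgeR adjusted p = 0.00129). In SCC25, the PBS libraries held 1680, 1980, 1750, 1840 and 1960 CPM and the cetuximab libraries 1950, 1900, 1140, 1510 and 1440 CPM. Cetuximab days 1 and 2 lay within the PBS range and days 3 to 5, from the other flow cell, lay below it. The change was not called (-0.22 ± 0.13, edgeR adjusted p = 0.277), and SLC7A5 was called lower when days 1 and 2 were left out.

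SLC3A2 (GRCh37 chr11:62623476-62656352, plus strand) encodes CD98, the heavy chain that carries LAT1 to the cell surface. In SCC1 it stood at 760, 636, 576, 542 and 566 CPM under PBS and at 970, 1010, 1010, 914 and 1030 CPM under cetuximab. In SCC6 the values were 645, 518, 577, 636 and 551 CPM under PBS and 888, 742, 921, 1080 and 908 CPM under cetuximab. The groups did not overlap in either line, with log2 fold changes of 0.69 ± 0.09 in SCC1 (edgeR adjusted p = 3.54e-05) and 0.61 ± 0.11 in SCC6 (edgeR adjusted p = 0.00148). In SCC25 the ranges overlapped, at 922 to 1100 CPM under PBS and 815 to 1150 CPM under cetuximab (-0.05, edgeR adjusted p = 0.746). For SLC7A5 and SLC3A2 together, the rise held with flow cell in the model, which sets SCC1 cetuximab against PBS day 5 alone and SCC6 libraries 2a, 2b and 3 against PBS days 2 to 5. SLC7A5 then gave 0.88 in SCC1 (edgeR adjusted p = 0.00797) and 0.84 in SCC6 (edgeR adjusted p = 2.69e-05), and SLC3A2 gave 0.82 (edgeR adjusted p = 0.00398) and 0.56 (edgeR adjusted p = 0.00114).

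SLC1A4 (GRCh37 chr2:65215611-65250999, plus strand) encodes ASCT1, an exchanger of alanine, serine and cysteine. In SCC1 it stood at 28.4, 22.9, 21.5, 20.5 and 23.9 CPM under PBS and at 30.7, 34.7, 38.3, 31.3 and 33.6 CPM under cetuximab, with no overlap, although PBS day 0 (34.3 CPM) lay within the cetuximab range. In SCC6 it stood at 15.6, 18.9, 27.8, 27.7 and 33.7 CPM under PBS and at 48, 27.5, 81.5, 80.6 and 91.6 CPM under cetuximab. SCC6 library 2b lay among the PBS libraries and the other 4 lay above them. The log2 fold changes were 0.53 ± 0.09 in SCC1 (edgeR adjusted p = 0.000435) and 1.40 ± 0.31 in SCC6 (edgeR adjusted p = 0.00558). With flow cell in the model the SCC1 call held (0.51, edgeR adjusted p = 0.0476) and the SCC6 call was lost (0.94, edgeR adjusted p = 0.0711). SLC1A4 in SCC25 was near 100 CPM in both groups, at 81.4 to 113 CPM under PBS and 96.9 to 107 CPM under cetuximab (0.10, edgeR adjusted p = 0.403). Of the remaining transporters, SLC7A1 (CAT1, an importer of arginine and lysine) was higher in SCC6 (0.62 ± 0.14, edgeR adjusted p = 0.00588) and the glutamine carrier SLC38A2 in SCC1 (0.28, edgeR adjusted p = 0.0273). The SLC38A2 call was lost with flow cell in the model (0.01, edgeR adjusted p = 0.959) and without any single one of 7 SCC1 libraries, cetuximab days 3 to 5 and PBS days 1 to 4 (edgeR adjusted p up to 0.0797).

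**Figure D2:**
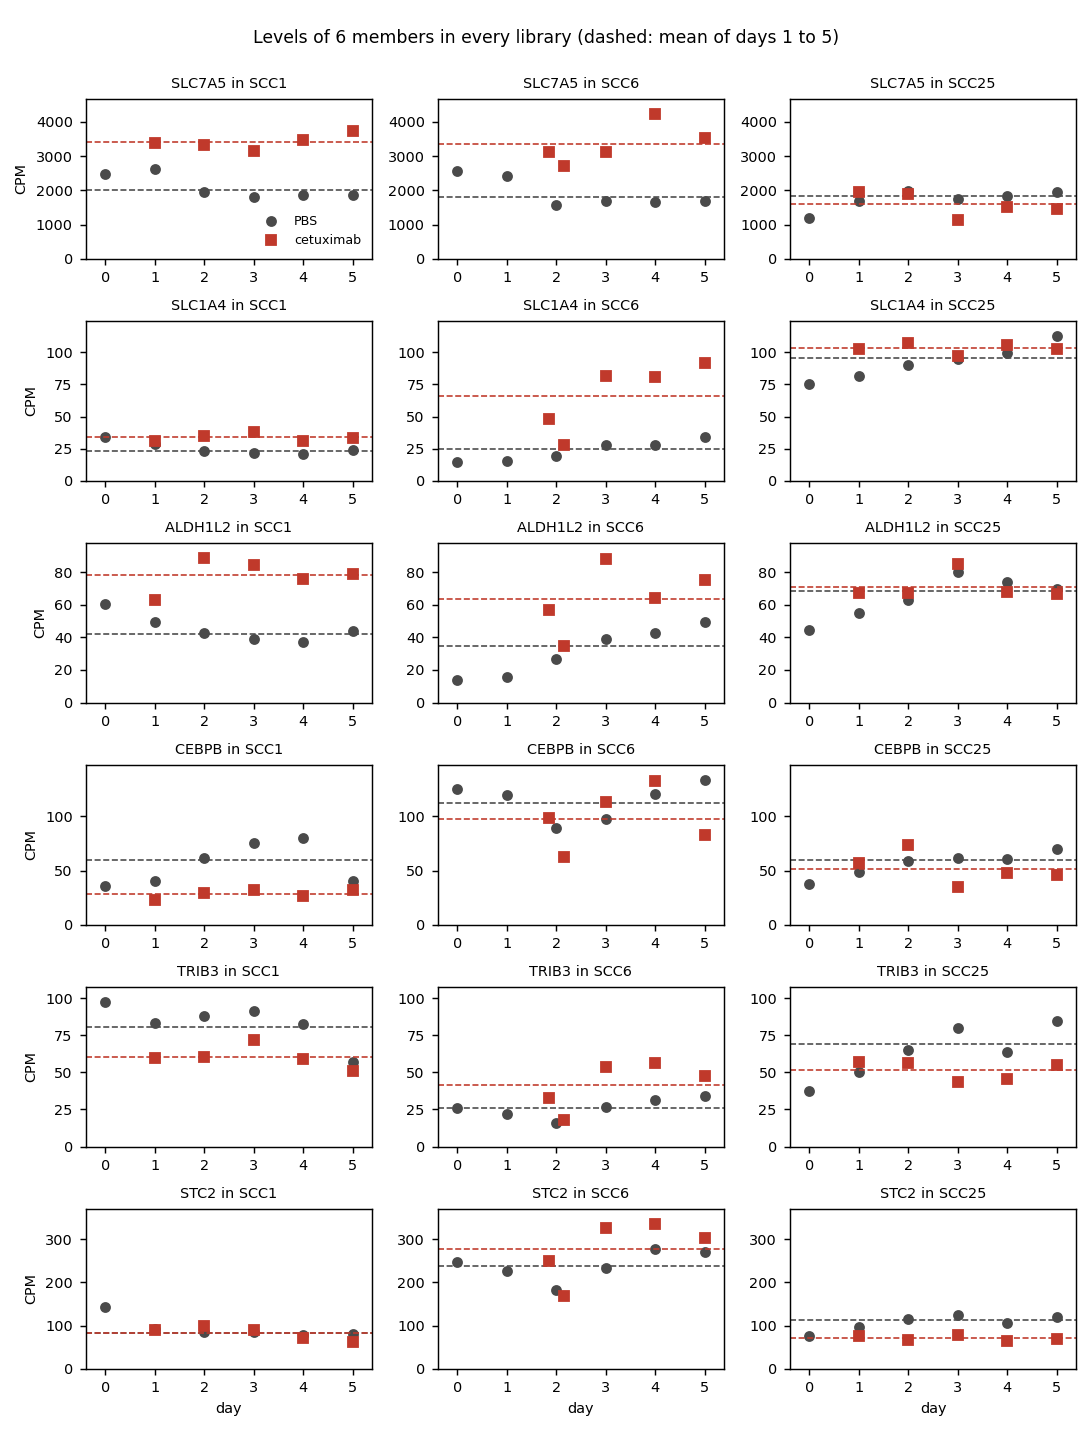
CPM by day for SLC7A5, SLC1A4, ALDH1L2, CEBPB, TRIB3 and STC2 in each line, with 1 point per library (circles PBS, squares cetuximab) and dashed lines at the means of days 1 to 5. SLC7A5 cetuximab points lie above the PBS points in SCC1 (3150 to 3730 CPM) and SCC6 (2710 to 4240 CPM), and STC2 cetuximab points lie below them in SCC25 (63.5 to 77.8 CPM).

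In the serine, one-carbon and proline group, members went in both directions. SCC1 had 3 higher and 2 lower, SCC6 had 1 higher, and SCC25 had 3 lower. ALDH1L2 (GRCh37 chr12:105413562-105501421, minus strand), the mitochondrial 10-formyltetrahydrofolate dehydrogenase, stood in SCC1 at 49.2, 42.5, 38.9, 37.1 and 43.7 CPM under PBS and at 62.7, 88.8, 84.2, 75.7 and 78.9 CPM under cetuximab. All 5 cetuximab libraries lay above the PBS libraries, with a log2 fold change of 0.89 ± 0.10 (edgeR adjusted p = 1.51e-05), and it held with flow cell in the model (0.85, edgeR adjusted p = 0.00873). In SCC6, ALDH1L2 stood at 16, 27, 39.2, 42.5 and 49.7 CPM under PBS and at 56.5, 34.8, 88.2, 64 and 75.1 CPM under cetuximab (0.85 ± 0.29, edgeR adjusted p = 0.046). The groups overlapped through library 2b, and the call was lost with flow cell in the model (0.58, edgeR adjusted p = 0.194) and without any single one of 7 libraries, cetuximab 2a, 3, 4 and 5 and PBS days 2 to 4 (edgeR adjusted p up to 0.113). In SCC25, ALDH1L2 gave 55.2 to 79.8 CPM under PBS and 66.4 to 84.9 CPM under cetuximab (0.04, edgeR adjusted p = 0.811).

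SHMT2 (GRCh37 chr12:57623356-57628718, plus strand) makes glycine and one-carbon units from serine in mitochondria. In SCC1, SHMT2 stood at 197, 212, 220, 204 and 218 CPM under PBS and at 165, 180, 180, 162 and 164 CPM under cetuximab (-0.30 ± 0.05, edgeR adjusted p = 0.000285). In SCC25 it stood at 184, 212, 214, 198 and 214 CPM under PBS and at 155, 161, 150, 158 and 153 CPM under cetuximab (-0.40 ± 0.05, edgeR adjusted p = 0.000471). The groups did not overlap in either line, and the calls held with flow cell in the model (-0.35 in SCC1 and -0.37 in SCC25). SHMT2 in SCC6 overlapped, at 139 to 180 CPM under PBS and at 163, 131, 204, 266 and 257 CPM under cetuximab (0.28, edgeR adjusted p = 0.246). MTHFD2, the next enzyme of that mitochondrial route, was lower in SCC1 (-0.23, edgeR adjusted p = 0.00898). PHGDH, which commits glucose carbon to serine, was higher in SCC1 (0.50 ± 0.12, edgeR adjusted p = 0.00616), a call lost with flow cell in the model (0.52, edgeR adjusted p = 0.149), and PSPH was higher there too (0.26 ± 0.09, edgeR adjusted p = 0.0339). The PSPH call was lost without any single one of 5 SCC1 libraries, cetuximab days 2 and 3 and PBS days 3 to 5 (edgeR adjusted p up to 0.0931).

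PYCR1 (GRCh37 chr17:79890260-79900288, minus strand), which makes proline, stood in SCC25 at 61.2, 73.6, 74, 68.2 and 74 CPM under PBS and at 62.2, 64.4, 42.8, 53.2 and 53.5 CPM under cetuximab. The low values were those of cetuximab days 3 to 5, and the log2 fold change was -0.35 ± 0.10 (edgeR adjusted p = 0.0332). The call was lost with day as a block (-0.36, edgeR adjusted p = 0.0507), with flow cell in the model (-0.15, edgeR adjusted p = 0.407), and without any single one of 6 SCC25 libraries, cetuximab days 4 and 5 and PBS days 2 to 5 (edgeR adjusted p up to 0.0802). PSAT1, the serine pathway transaminase, was lower in SCC25 (-0.31 ± 0.10, edgeR adjusted p = 0.0482), and leaving out any single one of 8 SCC25 libraries (cetuximab days 1, 2, 4 and 5 and PBS days 2 to 5) ended that call, with edgeR adjusted p up to 0.138. In SCC6, PYCR1 was not called (0.69 ± 0.28, edgeR adjusted p = 0.0852), although its cetuximab libraries 4 and 5, at 71.8 and 69.3 CPM, were above its PBS libraries of days 1 to 5, at 23 to 43.2 CPM.

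Among the asparagine, alanine and cysteine enzymes, GPT2, which makes alanine, was higher in SCC6 (0.75 ± 0.24, edgeR adjusted p = 0.0371). That call was lost with flow cell in the model (0.34, edgeR adjusted p = 0.347) and without any single one of cetuximab 3, 4 and 5 and PBS days 1 to 3 (edgeR adjusted p up to 0.0988). ASNS, the asparagine synthetase and a textbook ATF4 target, changed by 0.07 in SCC1, 0.21 in SCC6 and -0.26 in SCC25, none of them called. With day as a block the SCC25 value was called (-0.25, edgeR adjusted p = 0.0448). CBS, which makes cystathionine, has a near-identical copy in the table under the symbol CBSL, and reads from both cannot be told apart. CBS took 98.7% to 100% of the summed CBS and CBSL estimated counts in SCC25 on days 1 to 5 and 6.23% to 15.8% of them in SCC6. In SCC6 the sum stood at 19.5, 13.4, 16.9, 20.2 and 19 CPM under PBS and at 24.7, 18.5, 27.4, 38 and 34.6 CPM under cetuximab, while the row named CBS stood at 0.937 to 3.09 and 2.08 to 5.19 CPM. CBS alone was not called in SCC6 (0.85, edgeR adjusted p = 0.0841), and the sum was (0.67 ± 0.19, edgeR adjusted p = 0.0185). CBS was singled out, and the sum formed, after the values were seen.

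Of the 7 regulators, 4 were lower in SCC1. ATF4 (GRCh37 chr22:39915700-39918688, plus strand) stood at 208, 248, 253, 243 and 249 CPM under PBS and at 201, 215, 209, 186 and 210 CPM under cetuximab in SCC1 (-0.22 ± 0.06, edgeR adjusted p = 0.00678). PBS day 1, at 208 CPM, lay among the cetuximab libraries, and with flow cell in the model the call was lost (-0.27, edgeR adjusted p = 0.0665). In SCC6, ATF4 stood at 589, 566, 634, 693 and 592 CPM under PBS and at 654, 471, 759, 850 and 878 CPM under cetuximab. The lowest value of the line was cetuximab library 2b and the highest 3 were cetuximab 3, 4 and 5 (0.22 ± 0.15, edgeR adjusted p = 0.302). SCC25 ATF4 was 269, 274, 280, 251 and 295 CPM under PBS and 260, 244, 237, 264 and 259 CPM under cetuximab, with overlapping groups (-0.12 ± 0.05, edgeR adjusted p = 0.135).

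CEBPB (GRCh37 chr20:48807367-48809205, plus strand), a C/EBP factor that can pair with ATF4, had the largest fall among called members of SCC1. It stood at 40.2, 61.5, 75.1, 80 and 40.1 CPM under PBS and at 22.8, 29.6, 31.7, 26 and 31.8 CPM under cetuximab. The groups did not overlap (-1.05 ± 0.21, edgeR adjusted p = 0.00235), but PBS day 5, the library that shared a flow cell with the cetuximab libraries, was low, and with flow cell in the model the call was lost (-0.49, edgeR adjusted p = 0.284). TRIB3 (GRCh37 chr20:343479-378203, plus strand), a pseudokinase that holds ATF4 activity in check, stood at 83, 87.7, 91.3, 82.3 and 56.9 CPM under PBS and at 59.5, 60.3, 71.6, 59.3 and 51.1 CPM under cetuximab (-0.40 ± 0.12, edgeR adjusted p = 0.0169). PBS day 5 lay among the cetuximab libraries here too, and with flow cell in the model the sign turned (0.10, edgeR adjusted p = 0.637). SESN2, a restraint on mTORC1, was lower in SCC1 (-0.22, edgeR adjusted p = 0.0418), a call lost with that covariate (-0.12, edgeR adjusted p = 0.56) and without any single one of cetuximab days 1 and 5 and PBS days 2 to 4 (edgeR adjusted p up to 0.0985).

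DDIT3 (GRCh37 chr12:57910371-57915520, minus strand) encodes CHOP, a factor linked to cell death in prolonged ER stress. In SCC1 it stood at 30.4, 37.4, 44, 40.5 and 50 CPM under PBS and at 26.9, 31.3, 39.9, 34.4 and 38.9 CPM under cetuximab. The groups overlapped and DDIT3 was not called (-0.23 ± 0.13, edgeR adjusted p = 0.187), but each cetuximab library lay below the PBS library of its day, and with day as a block it was called (-0.22, edgeR adjusted p = 0.00617). In SCC6, DDIT3 stood at 21.9, 26.7, 39.5, 45.4 and 40.3 CPM under PBS and at 37, 21.8, 59, 50.1 and 57.2 CPM under cetuximab (0.36 ± 0.27, edgeR adjusted p = 0.342). In SCC25 it stood at 34.2, 36.8, 50.5, 51.9 and 54.5 CPM under PBS and at 34.3, 31.9, 45, 47.7 and 42.2 CPM under cetuximab (-0.19 ± 0.15, edgeR adjusted p = 0.431). The edgeR test called no regulator in SCC6 or in SCC25, where 1 and 3 of 7 had an unadjusted p below 0.05. DESeq2 also called none in SCC6, and in SCC25 it called TRIB3, which stood at 50.2, 64.9, 80.2, 63.9 and 84.9 CPM under PBS and at 57.1, 56, 43.7, 45.8 and 54.7 CPM under cetuximab (edgeR -0.42 ± 0.14, adjusted p = 0.0504).

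The ER group was below 0 in SCC1 for all 7 members, with 4 called lower and a median of -0.28. SDF2L1 (GRCh37 chr22:21996591-21998588, plus strand), a partner of ER-resident DnaJ proteins, stood at 33.6, 48.6, 55.6, 47.3 and 34.1 CPM under PBS and at 22.3, 26.4, 29.4, 21.6 and 28.7 CPM under cetuximab. The groups did not overlap (-0.76 ± 0.15, edgeR adjusted p = 0.00127), PBS day 0 (24.7 CPM) lay among the cetuximab libraries, and with flow cell in the model the call was lost (-0.40, edgeR adjusted p = 0.231). The chaperone HSP90B1 (-0.28 ± 0.08, edgeR adjusted p = 0.00954), the disulphide isomerase PDIA4 (-0.28 ± 0.07, edgeR adjusted p = 0.00438) and XBP1 (-0.24 ± 0.06, edgeR adjusted p = 0.00936) were lower too. With flow cell in the model, which sets SCC1 cetuximab against PBS day 5 alone, the 3 values stayed below 0, at -0.55, -0.39 and -0.32. HSP90B1 rose with day under PBS (0.11 per day), so its value there is set against a late library only. The HSP90B1 and PDIA4 calls were lost when PBS day 0 was added.

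HSPA5 (GRCh37 chr9:127997132-128003661, minus strand) encodes BiP, the main ER chaperone. In SCC1 it stood at 1220, 1370, 1570, 1490 and 1950 CPM under PBS and at 1080, 1220, 1450, 1240 and 1240 CPM under cetuximab. Each cetuximab library lay below the PBS library of its day, but the groups overlapped and HSPA5 was not called (-0.28 ± 0.11, edgeR adjusted p = 0.0615). It was called with day as a block (-0.27, edgeR adjusted p = 0.0182). With flow cell in the model, which sets SCC1 cetuximab against PBS day 5 alone, the value was -0.63. PBS day 5, at 1950 CPM, was the highest of these PBS libraries, and HSPA5 rose with day under PBS (0.17 per day). DNAJB9 and HERPUD1, 2 further unfolded protein response genes, were not called in SCC1 by the main edgeR fit. With day as a block both were called lower (-0.48, edgeR adjusted p = 0.00387, and -0.40, edgeR adjusted p = 0.000464). Without the block, DESeq2 called HSPA5, DNAJB9 and HERPUD1 lower in SCC1, and edgeR called HSPA5 and HERPUD1 lower there once the GC trend was removed. In SCC6, HSPA5 stood at 1700, 2220, 2620, 2210 and 1650 CPM under PBS and at 1990, 1560, 3000, 2010 and 2420 CPM under cetuximab. In SCC25 it stood at 1700, 1690, 1890, 1780 and 1770 CPM under PBS and at 1530, 1470, 2020, 1760 and 1760 CPM under cetuximab. HSPA5 groups overlapped in both lines (0.06 and -0.05).

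XBP1 (GRCh37 chr22:29190543-29196585, minus strand) encodes the factor made active by IRE1 splicing, which gene counts do not show. In SCC1 it stood at 164, 168, 180, 172 and 185 CPM under PBS and at 130, 147, 166, 154 and 136 CPM under cetuximab, with overlap through day 3. In SCC6 it stood at 173, 200, 240, 246 and 239 CPM under PBS and at 219, 184, 289, 248 and 265 CPM under cetuximab (0.11, not called). In SCC25 it stood at 90.6, 92.3, 107, 110 and 107 CPM under PBS and at 102, 103, 121, 126 and 120 CPM under cetuximab. Each SCC25 cetuximab library lay above the PBS library of its day. XBP1 was not called in the main fit (0.17, edgeR adjusted p = 0.161) and was called with day as a block (0.17, edgeR adjusted p = 0.0101). The main edgeR test called none of the 7 ER genes in SCC6 or SCC25, where 1 in each line had an unadjusted p below 0.05. DESeq2 called HERPUD1 in SCC6 and none in SCC25. With the GC trend removed, edgeR called DNAJB9 and HERPUD1 in SCC6. Without cetuximab days 1 and 2, which leaves only cetuximab libraries of the other flow cell, it called DNAJB9 and XBP1 in SCC25.

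STC2 (GRCh37 chr5:172741726-172755450, minus strand) encodes stanniocalcin 2, a secreted glycoprotein induced by ER stress. In SCC25 it stood at 96.5, 114, 124, 105 and 119 CPM under PBS and at 75.5, 66.5, 77.8, 63.5 and 69.2 CPM under cetuximab. All 5 cetuximab libraries lay below the PBS libraries of days 1 to 5 (-0.67 ± 0.08, edgeR adjusted p = 0.00024), though PBS day 0 (76 CPM) did not, and the call held with flow cell in the model (-0.65, edgeR adjusted p = 0.00431). In SCC1, STC2 ran from 78 to 91.9 CPM under PBS and from 62.2 to 100 CPM under cetuximab (-0.01, edgeR adjusted p = 0.943), and in SCC6 from 182 to 278 and from 169 to 337 CPM (0.20, edgeR adjusted p = 0.426). The tRNA synthetases GARS (-0.17, edgeR adjusted p = 0.0295) and WARS (-0.24, edgeR adjusted p = 0.028) were lower in SCC1. The GARS call was lost with flow cell in the model (-0.13, edgeR adjusted p = 0.393). Leaving out any single one of 5 SCC1 libraries (cetuximab days 1, 4 and 5 and PBS days 3 and 4) ended it too, with edgeR adjusted p up to 0.0671, and the WARS call ended without 4 of these, all but PBS day 3 (edgeR adjusted p up to 0.0616). No tRNA synthetase of the set was called in SCC6 or SCC25 by the main edgeR fit or by DESeq2, with 0 and 2 of 4 at an unadjusted p below 0.05. Removal of the GC trend brought a call for GARS, lower, in SCC25. With day as a block, GARS (-0.19, edgeR adjusted p = 0.0129), SARS (-0.17, edgeR adjusted p = 0.0258) and WARS (-0.16, edgeR adjusted p = 0.0363) were lower in SCC25.

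With day as a block, 24 members were called in SCC1 (8 higher and 16 lower), where 24.1% of all genes were called higher and 23.1% lower. In SCC25 the block gave 14 calls (4 higher and 10 lower), against 12.7% and 14.1% of all genes. The higher ones were SLC7A1 (0.15), XBP1 (0.17), DNAJB9 (0.29) and HERPUD1 (0.15), and the last 3 of these were called lower in SCC1 with the same block. The lower ones were STC2, SHMT2, PSAT1, PSPH, MTHFD2, ASNS, SLC1A5, GARS, SARS and WARS. With flow cell in the model and no block, SLC7A1 (0.05), XBP1 (0.02), DNAJB9 (0) and HERPUD1 (-0.09) were not called in SCC25. That model called 3 members there, all lower. Leaving out 1 library moved the SCC25 count of the main fit to 10 without PBS day 1, and to 2 without cetuximab day 4 or 5 or PBS day 2, 3, 4 or 5. The SCC6 count moved to 15, all higher, without cetuximab library 2b. Members whose cetuximab libraries all lay above or all below the PBS libraries of days 1 to 5 numbered 4 above and 5 below in SCC1, where the same held for 15.3% and 15.9% of genes tested. In SCC6, 3 members lay above, against 10.7% of genes above and 8.33% below, and in SCC25, 3 lay below, against 6.87% above and 7.89% below.

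The log2 ratio of cetuximab to PBS was also taken day by day and summarised as a median over each role. SCC1 transporters gave 0.15, 0.51, 0.59, 0.48 and 0.44 on days 1 to 5, and SCC1 ER genes gave -0.34, -0.29, -0.24, -0.28 and -0.59, with 0 of 7 above 0 on each day. SCC6 transporters gave 0.43 for days 1 and 2 combined and 0.70, 0.78 and 0.80 on days 3 to 5, while SCC6 regulators gave -0.06, 0.26, 0.39 and 0.50. Cetuximab libraries 4 and 5 of SCC6 were alone on their flow cell, so day and flow cell cannot be told apart for them. In SCC25 the regulators gave 0.15 and -0.15 on days 1 and 2 and -0.61, -0.28 and -0.57 on days 3 to 5, a step that falls where the flow cell changes, so day and flow cell cannot be told apart there.

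**Figure D3:**
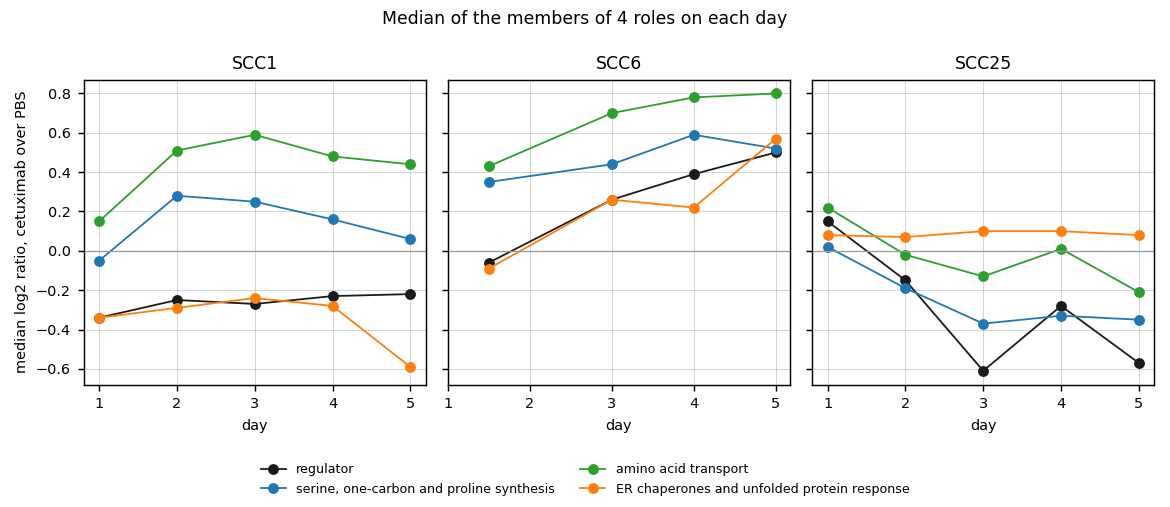
Median log2 ratio of cetuximab to PBS by day over the members of 4 roles in each line, 1 coloured line per role. SCC6 days 1 and 2 are combined and drawn midway between them. Median transporter ratios lie above 0 on all days in SCC1 (0.15 to 0.59) and SCC6 (0.43 to 0.80), and ER medians lie below 0 on all days in SCC1.

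The response on days 4 and 5 was set against that on days 1 to 3 in each line. The edgeR test called no gene in any line, a background of 0% of 19660, 19150 and 20740 genes. At an unadjusted p below 0.05 there were 3 members in SCC1, 7 in SCC6 and 0 in SCC25. DESeq2 called 2 members in SCC6, PYCR1 (edgeR 1.24 ± 0.40, edgeR adjusted p = 0.102) and SDF2L1 (edgeR 1.49 ± 0.56, edgeR adjusted p = 0.123), both named after their values were seen, and none in the other lines.

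Whether the response differed between lines was tested as a difference of differences over 30 libraries. Between SCC6 and SCC1, 11 members had a higher log2 response (a larger rise or a smaller fall) in SCC6, against backgrounds of 11% higher and 8.19% lower. They were the regulators ATF4 (0.47 ± 0.15, edgeR adjusted p = 0.0221), TRIB3 (1.08 ± 0.31, edgeR adjusted p = 0.014) and CEBPB (0.87, edgeR adjusted p = 0.0334), the ER genes HERPUD1 (0.92), SDF2L1 (1.01), DNAJB9 (0.90) and PDIA4 (0.43), and SHMT2, GPT2, SLC7A1 (0.75, edgeR adjusted p = 0.000458) and SLC1A4. The count went from 11 to 17 without SCC6 cetuximab 2b, to 7 without 3 or without 5, and to 6 without 4. SLC7A1, HERPUD1, TRIB3, SHMT2 and PDIA4 kept their calls with each library left out in turn. ATF4 and GPT2 lost theirs without SCC6 cetuximab 4 or 5, DNAJB9 without SCC1 PBS day 5 or SCC6 cetuximab 3, CEBPB without SCC1 cetuximab day 1 or 4, SCC1 PBS day 2, 3 or 4, SCC6 cetuximab 3 or 4 or SCC6 PBS day 2 or 3, and SLC1A4 without SCC1 cetuximab day 1, 4 or 5, SCC1 PBS day 1, SCC6 cetuximab 3, 4 or 5 or SCC6 PBS day 1 or 2. SDF2L1 kept its call only without SCC1 PBS day 1 or 5, SCC6 cetuximab 2a or 2b, SCC6 PBS day 1 or SCC25 cetuximab day 2 or 3 (edgeR adjusted p up to 0.129 without the others). With flow cell in the model 3 were called, SLC7A1 (0.62), DNAJB9 (1.20) and HERPUD1 (1.19).

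Between SCC25 and SCC1, SLC7A5 (-0.97 ± 0.19, edgeR adjusted p = 0.000849), SLC3A2 (-0.73 ± 0.14, edgeR adjusted p = 0.000616) and STC2 (-0.64 ± 0.20, edgeR adjusted p = 0.0403) had a lower log2 response in SCC25, against backgrounds of 4.34% higher and 4.16% lower. The response of ALDH1L2 was not called different between these lines (-0.84, edgeR adjusted p = 0.0822). The number called in either direction was 5 without SCC1 PBS day 1 (2 higher and 3 lower) and without SCC6 PBS day 1 or SCC6 cetuximab 2b (1 higher and 4 lower each), and the STC2 difference lost its call without any single one of 13 libraries (SCC1 cetuximab days 1 to 3 and PBS days 2 to 5, and SCC25 cetuximab days 2, 4 and 5 and PBS days 2, 3 and 5), with edgeR adjusted p up to 0.0888. With line and day as a block it was 8 (3 higher and 5 lower) with SCC6 library 2a taken as day 1, and 9 (3 higher and 6 lower) with 2b. The 3 higher were XBP1 (0.42), DNAJB9 (0.78) and HERPUD1 (0.56), and ALDH1L2 (-0.83) and PHGDH (-0.72) were among the lower in both. With flow cell in the model 2 were called, SLC7A5 and SLC3A2 (-0.80 and -0.66), and XBP1 (0.35), DNAJB9 (0.93) and HERPUD1 (0.61) were not.

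Between SCC25 and SCC6, 12 members had a lower log2 response in SCC25, against backgrounds of 7.33% higher and 10.1% lower, and the members' median was -0.46. The largest were SLC1A4 (-1.31, edgeR adjusted p = 0.00261), SLC7A5 (-1.10, edgeR adjusted p = 0.000129), TRIB3 (-1.09, edgeR adjusted p = 0.0156), CBS (-1.08, edgeR adjusted p = 0.0326) and PYCR1 (-1.06, edgeR adjusted p = 0.0132). For CBS and CBSL summed the difference was -0.90 ± 0.24 (edgeR adjusted p = 0.00781). PHGDH, GPT2, STC2, SHMT2, SLC3A2, SLC1A5 and SLC7A1 made up the rest, from -0.97 to -0.50. Single libraries ended 4 of these calls. They were SCC25 PBS day 5 for SLC7A1 (edgeR adjusted p = 0.0515), and SCC25 cetuximab day 3, SCC25 PBS day 5, SCC6 cetuximab 4 or 5 or SCC6 PBS day 2 for PHGDH (up to 0.0771). For CBS they were SCC25 cetuximab day 3 or 4, SCC25 PBS day 2 or 5, SCC6 cetuximab 4 or 5 or SCC6 PBS day 2, 3 or 5 (up to 0.107), and for SLC1A5 those of CBS plus SCC25 cetuximab day 5 and SCC25 PBS days 3 and 4 (up to 0.127). Without SCC6 cetuximab 2b the count was 20, and with flow cell in the model it was 1, SLC7A5 (-0.78). The 3 differences share libraries, so they are not independent of each other.

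Under PBS the lines already differed. SCC6 held 18 members higher and 7 lower than SCC1, against 33.1% and 33.4% of all genes. SCC25 held 19 higher and 6 lower than SCC1, against 34.2% and 32.2%, and 13 higher and 13 lower than SCC6, against 36.4% and 33.4%. Scaling by total count moved the median of all genes to -0.18 for SCC6 against SCC1 and to 0.15 for SCC25 against SCC6, and the counts to 14 higher and 12 lower and to 17 higher and 13 lower. Removal of the GC trend gave 15 higher and 11 lower for SCC25 against SCC1 and 10 higher and 19 lower for SCC25 against SCC6. Line, flow cell and, by the labels, medium cannot be told apart in these values.

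**Figure D4:**
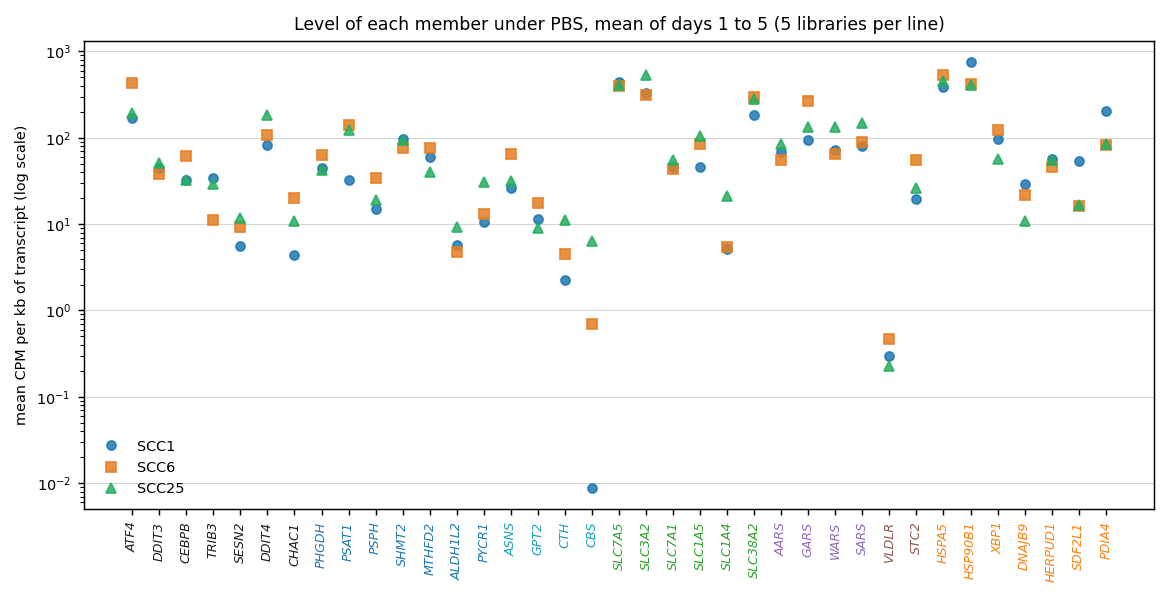
Mean CPM per kb of transcript of each member under PBS on days 1 to 5 (5 libraries per line) on a log axis, with 1 point per line, no error bars, and gene names coloured by role. HSP90B1 in SCC1 is at the top with 755 CPM per kb, ATF4 is higher in SCC6 than in the other lines, and CBS, which shares reads with CBSL, is near 0 in SCC1.

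ATF4 mRNA stood at 240 ± 18.4 CPM in SCC1, 614 ± 50.1 CPM in SCC6 and 274 ± 16.3 CPM in SCC25 (SD, n = 5 days). SCC6 exceeded SCC1 by 1.36 ± 0.10 and SCC25 fell by 1.17 against SCC6 on the log2 scale, while the difference between SCC25 and SCC1 was not called (0.19, edgeR adjusted p = 0.105). CHAC1, which degrades glutathione, followed the same order of lines at 6.75, 30.3 and 16.5 CPM in SCC1, SCC6 and SCC25, as did the synthetase GARS at 233, 647 and 321 CPM and ASNS at 62.5, 155 and 76.1 CPM. TRIB3 went the other way, at 80.3 CPM in SCC1, 26.2 in SCC6 and 68.8 in SCC25. The other synthetases of the set were highest in SCC25. In SCC1, SCC6 and SCC25, AARS stood at 234, 190 and 294 CPM, WARS at 189, 169 and 355 CPM, and SARS at 154, 173 and 284 CPM. With flow cell in the model SCC6 stayed above SCC1 for ATF4, CHAC1 and GARS, while the ASNS difference was not called (0.21, edgeR adjusted p = 0.726).

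PSAT1 was low in SCC1 alone, at 72.7 CPM against 307 in SCC6 and 268 in SCC25. SLC1A4 was high in SCC25 alone, at 95.7 CPM against 23.4 in SCC1 and 24.7 in SCC6, and all 5 transporters called between SCC25 and SCC1 were higher in SCC25. With flow cell in the model these 5 stayed higher, and SLC7A5 was called lower in SCC25 (-0.66, edgeR adjusted p = 0.000638). The ER genes were highest in SCC1 for SDF2L1 (43.9, 13.3 and 13.7 CPM in SCC1, SCC6 and SCC25), PDIA4 (558, 230 and 235 CPM) and HSP90B1 (2100, 1160 and 1140 CPM). HSPA5 had its highest mean in SCC6, at 2080 CPM, against 1520 in SCC1 and 1770 in SCC25. Per kilobase of the reference transcript, HSP90B1 in SCC1 reached 755 CPM per kb, and VLDLR lay between 0.229 and 0.469 CPM per kb.

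CBS gave 0 to 2 counts in every SCC1 library. Its row was higher in SCC25 (mean 15.8 CPM) than in SCC6 (1.73 CPM) by 3.17 on the log2 scale. With CBSL added, the means were 15.9 ± 1.91 CPM in SCC25 and 17.8 ± 2.77 CPM in SCC6, and the difference was not called (-0.17 ± 0.17, edgeR adjusted p = 0.377).

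The members also changed with days under PBS, where only media were replaced. Slopes over days 0 to 5 were called up for 5 and down for 4 members in SCC1 (1.83% and 0.856% of all genes), up for 16 and down for 4 in SCC6 (13.8% and 18.6%), and up for 17 in SCC25 (7.22% up and 3.82% down). In SCC25 all 37 fitted slopes were above 0, with a median of 0.11 log2 per day, and that line's PBS libraries shared a flow cell. Slopes of different lines were not set against each other by a test.

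**Figure D5:**
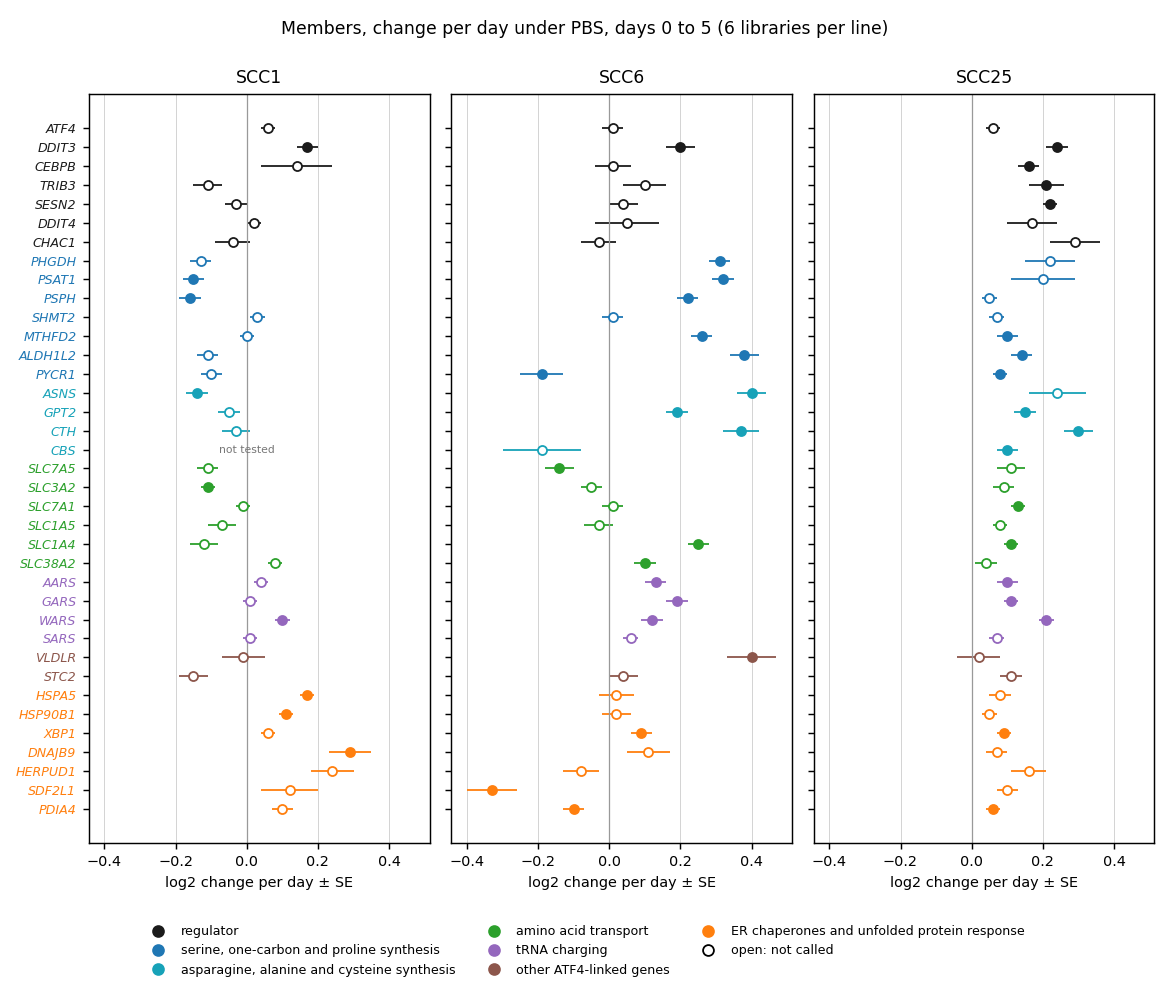
Log2 change per day of each member under PBS over days 0 to 5 in each line, grouped by role, with bars of 1 standard error and called members filled. All SCC25 points lie above 0, with a median of 0.11, and SCC6 points spread from -0.33 (SDF2L1) to 0.40 (ASNS).

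DDIT3 and WARS were called up in all 3 lines over days 0 to 5. Over days 1 to 5 alone both kept their calls in SCC25 and lost them in SCC1, where PBS day 5 came from another flow cell. In SCC6, WARS lost its call over days 1 to 5, and both lost theirs over days 2 to 5. DDIT3 went from 26.6 CPM on day 0 to 50 CPM on day 5 in SCC1 (0.17 ± 0.03 per day, edgeR adjusted p = 0.025), from 23.8 to 40.3 CPM in SCC6 (0.20 ± 0.04, edgeR adjusted p = 0.00761) and from 22.8 to 54.5 CPM in SCC25 (0.24 ± 0.03, edgeR adjusted p = 0.000214). WARS charges tryptophan and is also an interferon-induced gene, and its slopes were 0.10 in SCC1, 0.12 in SCC6 and 0.21 in SCC25 (edgeR adjusted p = 0.0298, 0.0121 and 1.08e-05). Of the genes of the interferon gamma list, 2 of 8 rose with day in SCC1, 5 of 6 in SCC6 and 8 of 8 in SCC25, and their part in the WARS slope was not tested.

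In SCC25 the larger called slopes were those of CTH, which makes cysteine (0.30, edgeR adjusted p = 0.000198), SESN2 (0.22, edgeR adjusted p = 2.79e-05), TRIB3 (0.21) and CEBPB (0.16). ATF4 itself, at 220, 269, 274, 280, 251 and 295 CPM on days 0 to 5, was not called. The SCC25 count was 9 without PBS day 0, 11 without PBS day 1, and 29 by DESeq2, all up. In SCC6 the larger called slopes were those of ASNS (0.40, edgeR adjusted p = 0.000302), VLDLR (0.40), ALDH1L2 (0.38), CTH (0.37), PSAT1 (0.32) and PHGDH (0.31), and the falls were those of SDF2L1 (-0.33), PYCR1 (-0.19), SLC7A5 (-0.14) and PDIA4 (-0.10). SCC6 days 0 and 1 came from another flow cell than days 2 to 5. Over days 2 to 5 alone, 12 members rose and 2 fell, and the slopes of PYCR1 (0.10) and SLC7A5 (0.03) turned in sign and were not called. In SCC1 the ER genes DNAJB9 (0.29), HSPA5 (0.17) and HSP90B1 (0.11) rose, while PSPH (-0.16), PSAT1 (-0.15), ASNS (-0.14) and SLC3A2 (-0.11) fell. HSPA5 in SCC1 stood at 998, 1220, 1370, 1570, 1490 and 1950 CPM on days 0 to 5. Scaling by total count turned the SCC1 split to 3 up and 4 down. The SCC1 count was 0 without PBS day 0 or PBS day 1, 4 without day 2, 2 without day 3 and 1 without day 4, and none of the 9 SCC1 slopes kept its call in every one of these fits.

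Related genes outside the set, from lists drawn up by function, give the setting. Their counts under cetuximab are to be read beside the shares of all genes tested. For SCC1 these shares were 22.5% higher and 22% lower. They were smaller for SCC6 (15.5% higher, 14.5% lower) and smallest for SCC25 (8.72% higher, 9.47% lower). Of other ATF4 target genes, 6 of 27 were higher and 8 lower under cetuximab in SCC1, 8 of 25 higher and 2 lower in SCC6, and 1 of 26 higher and 5 lower in SCC25. NUPR1, a stress-induced chromatin protein, rose by 3.35 in SCC1 and by 1.74 in SCC6, and DDIT4L fell by 2.28 in SCC1. With day under PBS, 1 of 27 fell and none rose in SCC1 by edgeR (8 at an unadjusted p below 0.05, and 2 up and 2 down by DESeq2). In SCC6, 14 of 25 rose and 1 fell, and in SCC25, 15 of 27 rose and 1 fell, beside the shares of all genes given above for the slopes. GDF15, a secreted stress cytokine, gave 0.65 per day in SCC6 and 0.59 in SCC25. Other ER folding and degradation genes were lower for 8 of 21 in SCC1, led by ERN1 (-0.79), the IRE1 sensor, and MANF (-0.55). In SCC6, 2 of 21 were higher and 1 lower, and in SCC25 edgeR called none of 22, with 2 at an unadjusted p below 0.05 and 1 called higher by DESeq2. Cytosolic tRNA synthetases outside the set were lower for 6 of 8 in SCC1, 4 of 8 in SCC6 and 5 of 8 in SCC25. Of 12 genes for eIF2α kinases, phosphatase subunits and eIF2B, 5 were lower in SCC1, 4 were lower and 1 higher in SCC6, and 2 were lower in SCC25. PPP1R15A, which directs dephosphorylation of eIF2α, fell by 0.90 in SCC1 and by 0.54 in SCC25. Proliferation genes were lower for 7 of 10 in SCC1, 1 of 10 in SCC6 and 7 of 10 in SCC25, and interferon gamma genes were higher for 4 of 8, 4 of 6 and 2 of 8, and the part of either in the members' changes was not tested.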

How the data were processed

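Bulk poly(A) RNA-seq of 33 libraries was used. The authors deposited estimated counts per gene symbol, made with Salmon 0.8.2 per the submitters' notes, which also name hg19, and summed to genes with tximport per the study's methods. The annotation behind the symbols is not given in the sources used here. The table lists CBSL, a symbol absent from the GRCh37 annotation used here. Deposited estimated counts were rounded to whole numbers.

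Genes were filtered with filterByExpr, scaled by TMM and tested two-sided with edgeR 4.0.16 (estimateDisp, robust glmQLFit, glmQLFTest) in R 4.3.3, with Benjamini-Hochberg adjustment over all genes tested at a threshold of 0.05. The study names DESeq2 without a design. DESeq2 1.42.0 was an alternative. Cetuximab was compared with PBS on days 1 to 5 in each line (5 against 5), responses and PBS levels between lines over 30 libraries in 6 groups, and the slope with day over 6 PBS libraries. SE is the absolute log2 fold change divided by the square root of F. Daily ratios added 0.1 to CPM. Nothing states that libraries come from separate cultures, so p-values measure only the spread between these libraries. No pair of libraries agreed within sampling noise. Library totals of 28508758 to 80727478 set the precision, and single-digit counts such as CBS in SCC1 carry wide counting error.

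Scripts were tested on simulated counts. Other settings were DESeq2, DESeq2 size factors, total count scaling, no filter on low counts, removal of the trend with GC content, a minimum absolute log2 change of 1, day 0 added, day as a block, the flow cell as a covariate, and each library left out in turn. The flow cell in the fits of 30 libraries, SCC6 slopes over days 2 to 5, SCC25 without cetuximab days 1 and 2, and the CBS and CBSL sum were chosen after seeing the data. Same-day PBS and cetuximab libraries deviated together in SCC1 (r = 0.12 to 0.40 over 5 pairs) and SCC25 (0.23 to 0.59 over 5 pairs), and not in every pair of SCC6 (-0.19 to 0.59 over 3 pairs), so day was taken to pair libraries in SCC1 and SCC25. However, SCC1 cetuximab days 3 to 5 and SCC25 cetuximab day 1 agreed best with PBS of another day. Examples are SCC1 cetuximab day 4 with PBS day 5 (0.38, against 0.20) and SCC25 cetuximab day 1 with PBS day 2 (0.64, against 0.23). The other cetuximab libraries of these 2 lines agreed best with PBS of their own day. These correlations thus cannot tell pairing by day from likeness of nearby days.

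The members, lists and tests were chosen with earlier results of these data known. Values in every library are given by rule for ATF4, DDIT3, HSPA5, XBP1, members called the same way in all 3 lines, and, per line, the 3 called members that rose most and the 3 that fell most. Lists may name the 2 largest called changes in a line. Symbols were matched to GENCODE v44lift37, with 34694 matched by symbol and 1364 by older symbol, all 37 members included (4 by older symbol). Promoters came from RefSeq GRCh38.p14. Python 3.11.15 drew the figures.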

Additional observations from a re-analysis of the deposited data

Results flagged for a closer look

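In 84 groups of 5 libraries (14 members, 3 lines and 2 treatments), 6 had a library far from the others by Dixon's criterion, which chance gives in about 1 group in 20. ATF4 was lowest in SCC1 PBS on day 1 (208 CPM) and TRIB3 was lowest in SCC1 PBS on day 5 (56.9 CPM). SLC7A5 was highest on PBS day 1 in SCC1 (2630 CPM) and in SCC6 (2430 CPM), PYCR1 was highest in SCC6 PBS on day 1 (43.2 CPM), and ALDH1L2 was highest in SCC25 cetuximab on day 3 (84.9 CPM).

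The response to cetuximab was called different between lines for 26 pairs of a member and 2 lines, by the test of the difference itself in edgeR. Of all genes, 11% were called above SCC1 in SCC6, 4.16% below SCC1 in SCC25 and 10.1% below SCC6 in SCC25. With flow cell in the model 3, 2 and 1 members were called. Several calls also hung on single libraries, as given above, and that of SDF2L1 was kept in only 7 of 30 fits with 1 library left out. SCC6 exceeded SCC1 for ATF4 (0.47), CEBPB (0.87), TRIB3 (1.08), SHMT2 (0.61), GPT2 (0.77), SLC7A1 (0.75), SLC1A4 (0.89), DNAJB9 (0.90), HERPUD1 (0.92), SDF2L1 (1.01) and PDIA4 (0.43). SCC25 was below SCC1 for SLC7A5 (-0.97), SLC3A2 (-0.73) and STC2 (-0.64). SCC25 was below SCC6 for SLC1A4 (-1.31), SLC7A5 (-1.10), TRIB3 (-1.09), CBS (-1.08), PYCR1 (-1.06), PHGDH (-0.97), GPT2 (-0.93), STC2 (-0.88), SHMT2 (-0.70), SLC3A2 (-0.68), SLC1A5 (-0.59) and SLC7A1 (-0.50).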

How the results depend on the processing

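Levels of well-expressed members were little limited by counting, while the flow cell, which nearly followed treatment, limited what each line shows. Depth was uneven in SCC6. Its cetuximab libraries 4 and 5, alone on their flow cell, held 80727478 and 75170052 counts, against 28508758 to 40302162 in its PBS libraries. Of the called changes under cetuximab, 240 of the values recomputed with other settings, fits with 1 library left out aside, stayed called in the same direction. A further 59 lost their call and 1 reversed, TRIB3 in SCC1 with the flow cell as a covariate (0.10). These settings include SCC25 without cetuximab days 1 and 2. They also include the CBS and CBSL sum, which left the counts of these called members unchanged. For PBS slopes the numbers were 250, 44 and 2, the reversals being PYCR1 (0.10) and SLC7A5 (0.03) in SCC6 over days 2 to 5, and for differences between lines 196 and 38. The causes were not tested.

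Counts of members called were moved as follows. A further minimum of 1 on the absolute log2 change left 1 in SCC1, 1 in SCC6 and 0 in SCC25, and 12 in each comparison of PBS levels. Removal of the GC trend gave 10 in SCC6, 10 in SCC25 and 8 for the difference of SCC25 from SCC1. The flow cell as a covariate gave 3 in SCC6, 3 for the difference of SCC6 from SCC1, 1 for SCC25 from SCC6, and 14 for PBS levels of SCC25 against SCC6. In SCC25, adding day 0 gave 2 and leaving out cetuximab days 1 and 2 gave 12. Day as a replicate block gave 14 in SCC25. In SCC6, where day did not pair libraries in every pair, the block gave 10 with 2a as day 1. With line and day as a block, the differences gave 8 (2a as day 1) or 9 (2b as day 1) for SCC25 from SCC1, and 19 for SCC25 from SCC6 with 2a as day 1. DESeq2 gave 5 for the difference of SCC25 from SCC1, 14 for the SCC1 slope, 29 for the SCC25 slope and 2 for the late response in SCC6. No filter on low counts gave 28 for the SCC25 slope and 12 for the late response in SCC6. Over days 1 to 5 alone the slopes gave 0 in SCC1, 13 in SCC6 and 9 in SCC25.

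With each library left out in turn, counts ran from 14 to 23 in SCC1, 4 to 15 in SCC6 and 2 to 10 in SCC25 under cetuximab. The differences gave 6 to 17 for SCC6 from SCC1, 2 to 5 for SCC25 from SCC1 and 8 to 20 for SCC25 from SCC6. PBS levels gave 22 to 27, 24 to 27 and 25 to 29, slopes 0 to 13 in SCC1, 13 to 21 in SCC6 and 9 to 22 in SCC25, and the late response 0 to 0 in each line.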
